A study of Pseudozyma hubeiensis with 12 samples.

Results

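Triacylglycerol is the neutral storage fat of yeasts, and lipid droplets are the bodies that hold it. The 6 genes described here make triacylglycerol or act on the droplet in the basidiomycete yeast Pseudozyma hubeiensis BOT-O, and were taken from the 6689 loci of the deposited table. The table's gene name column gave 5 of them (sct1, slc1, dga1, lpl1 and ypr147c). The sixth, PHBOTO_004628, has no gene name and was taken by its locus, annotated as a lipid droplet-associated perilipin. All 6 passed the filter on low counts, and none shares its gene name with a numbered copy.

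RNA was sequenced from cultures in yeast nitrogen base with ammonium sulfate that began with 80 g of carbon per g of nitrogen, on glucose or on xylose. Sampling took place at time point 1, during exponential growth, and at time point 2, in cells starved of nitrogen. Each of the 4 groups (exponential glucose, exponential xylose, starved glucose and starved xylose) had 3 biological replicates, A, B and C. All groups share strain BOT-O, and effects of starvation and of culture age cannot be told apart. The labels' growth protocol names glucose for all 12 libraries, whereas titles, source names and the sugar label give xylose for the xylose groups, and the latter were followed. The question, from the study's title, is how expression differs between the sugars before and after nitrogen runs out.

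The steps of the pathway are known best from Saccharomyces cerevisiae, from which the 5 gene names come. Sct1 loads a first fatty acyl chain onto glycerol phosphate, Slc1 adds a second to give phosphatidate, a phosphatase removes the phosphate to give diacylglycerol, and Dga1 adds the last chain to give triacylglycerol. The fat collects in droplets bounded by a single phospholipid layer. Perilipins coat that layer, Lpl1 is a phospholipase of the droplet surface, and Ypr147c is a droplet-bound lipase and ester hydrolase. Nitrogen limitation with excess carbon is the classic condition under which oleaginous yeasts store fat.

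Levels below are CPM, counts relative to the TMM-scaled library size, and compare 1 gene across libraries. Gene lengths were not used, so levels of different genes are not compared. Changes are log2 fold changes ± SE from a single edgeR quasi-likelihood fit, and adjusted p means its F test with Benjamini-Hochberg adjustment over 5805 genes. Genes with an adjusted p below 0.05 are said to be called. Library totals ran from 15130232 to 32374467 counts, and Spearman correlations between replicates of a group ran from 0.979 to 0.997. In these bulk libraries a change in the RNA of every cell and a change in a part of the cells cannot be told apart.

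In starvation the last enzyme of the pathway, the droplet coat and the droplet phospholipase rose on both sugars. The first acyltransferase fell on both. The second acyltransferase and the droplet lipase fell on xylose and were not called on glucose. In every call of these 6 genes between starved and exponential growth the replicates of the groups did not overlap, which held for 81.5% of all genes on glucose and 85% on xylose.

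**Figure D1:**
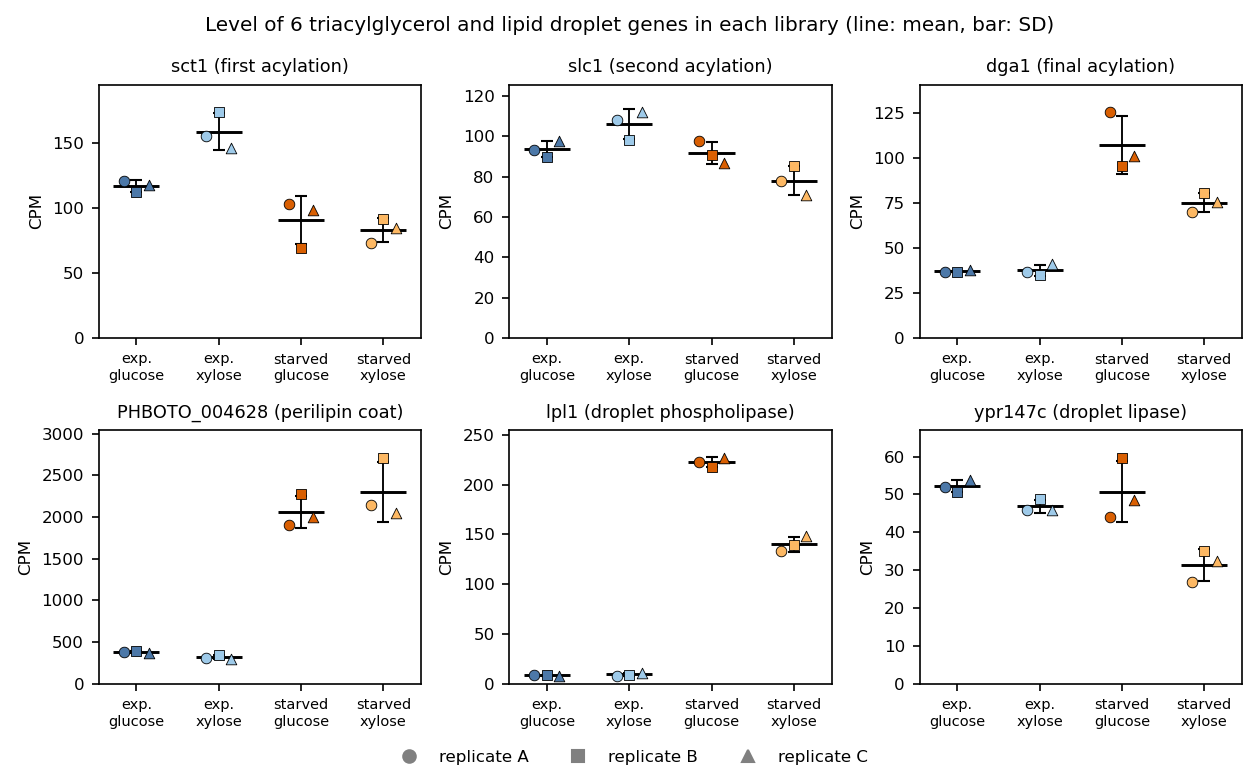
Level of each gene in CPM (vertical axis, from 0) in the 3 libraries of each of the 4 groups, with the mean as a line and the SD as a bar. The starved libraries stand far above the exponential ones for dga1, PHBOTO_004628 and lpl1, while sct1, slc1 and ypr147c lie at or below the exponential level, with ypr147c in starved glucose B (59.8 CPM) above it.

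The first acylation gene, sct1 (PHBOTO_001429), was highest in exponential growth on xylose. It stood at 121, 112 and 118 CPM in exponential glucose A, B and C, and at 155, 174 and 146 CPM in exponential xylose. In starvation it stood at 103, 69.4 and 98.7 CPM on glucose and at 73.1, 91.6 and 84.7 CPM on xylose. All starved libraries lay below all exponential libraries, and the starved groups overlapped each other. On xylose the gene fell by 0.93 ± 0.13 on the log2 scale (edgeR adjusted p = 5.03e-06), from 159 ± 14.2 to 83.1 ± 9.35 CPM (SD, n = 3). On glucose it fell by 0.37 ± 0.13 (edgeR adjusted p = 0.0144), from 117 ± 4.37 to 90.5 ± 18.4 CPM. The glucose call rested on starved glucose B, the lowest library of its group, and without it the sct1 change was -0.19 (edgeR adjusted p = 0.114).

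The second acylation gene, slc1 (PHBOTO_006485), varied least of the 6. Its libraries held 93.4, 89.7 and 97.8 CPM in exponential glucose and 97.7, 90.7 and 86.8 CPM in starved glucose, and these ranges overlapped. The glucose change of -0.03 was not called (edgeR adjusted p = 0.768), with a 95% interval of -0.22 to 0.16. On xylose slc1 went from 108, 98.0 and 112 CPM to 77.6, 85.4 and 70.8 CPM without overlap, a fall of 0.45 ± 0.09 on the log2 scale (edgeR adjusted p = 2.46e-04).

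The final acylation gene, dga1 (PHBOTO_004194), rose in starvation on both sugars and further on glucose. Exponential libraries were close together, at 36.8, 36.8 and 37.6 CPM on glucose and 36.9, 35.0 and 40.9 CPM on xylose. Starved libraries stood at 126, 95.6 and 101 CPM on glucose and at 70.0, 80.6 and 75.4 CPM on xylose. No starved library overlapped an exponential one, and the starved groups did not overlap each other. The rise was 1.54 ± 0.11 on glucose (2.90-fold, edgeR adjusted p = 1.30e-09) and 1.00 ± 0.11 on xylose (2.01-fold, edgeR adjusted p = 2.35e-07).

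The perilipin PHBOTO_004628, the coat protein gene, rose in starvation on both sugars. It held 387, 397 and 369 CPM in exponential glucose and 311, 348 and 302 CPM in exponential xylose. Starved glucose libraries held 1901, 2279 and 2005 CPM, and starved xylose libraries 2144, 2713 and 2045 CPM. The starved groups overlapped each other, and both lay far above the exponential groups. The rise was 2.42 ± 0.12 on glucose (5.36-fold, edgeR adjusted p = 1.05e-11) and 2.84 ± 0.12 on xylose (7.18-fold, edgeR adjusted p = 2.07e-12).

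The droplet phospholipase gene lpl1 (PHBOTO_003718) had the largest change of the 6 on both sugars. Its exponential libraries held 8.75, 8.38 and 8.04 CPM on glucose and 8.26, 9.12 and 10.8 CPM on xylose, from 165 to 330 counts each. Starved libraries held 222, 217 and 227 CPM on glucose and 133, 139 and 148 CPM on xylose. The exponential groups overlapped, and every starved glucose library lay above every starved xylose library. The rise was 4.73 ± 0.11 on glucose (26.4-fold, edgeR adjusted p = 1.17e-15) and 3.90 ± 0.10 on xylose (14.9-fold, edgeR adjusted p = 1.16e-14).

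The second droplet hydrolase, ypr147c (PHBOTO_005471), annotated as a triacylglycerol lipase, was lowest in starved xylose. It held 51.9, 50.7 and 53.9 CPM in exponential glucose and 44.0, 59.8 and 48.5 CPM in starved glucose, where the libraries lay on both sides of the exponential range. That change of -0.04 was not called (edgeR adjusted p = 0.772, 95% interval -0.29 to 0.21). On xylose it went from 45.9, 48.7 and 45.9 CPM to 26.8, 35.0 and 32.5 CPM, a fall of 0.57 ± 0.12 on the log2 scale (edgeR adjusted p = 3.54e-04). The droplet lipase and the droplet phospholipase thus moved in opposite directions on xylose.

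On glucose 3 of the 6 rose and 1 fell in starvation, where 81.2% of all genes tested were called (40.1% up and 41.1% down). On xylose 3 rose and 3 fell, where 81.3% of all genes were called (40.6% up and 40.6% down). With so many genes called, the counts say little by themselves, and the sizes say more. The 3 rises were 2-fold or more on both sugars, a size reached upward by 22.5% of all genes on glucose and 23.5% on xylose. Of the falls none reached 2-fold, a size reached downward by 22.1% of all genes on glucose and 20.2% on xylose. On xylose dga1 (2.01-fold) and sct1 (-0.93) lay close to that size. With scaling by library totals dga1 was at 0.79 and sct1 at -1.14, and without starved xylose B dga1 was at 0.95 and sct1 at -1.01. The median change of the 6 was 0.75 on glucose and 0.28 on xylose, beside -0.02 and 0.0012 for all genes tested.

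Set among all genes, lpl1 lay at percentile 98.0 of the log2 change on glucose and 96.6 on xylose, counting from the deepest fall. PHBOTO_004628 lay at 92.7 and 93.9, and dga1 at 84.8 and 76.3. The other members lay lower, with sct1 at 39.3 and 22.4, slc1 at 49.8 and 36.2, and ypr147c at 49.5 and 32.0.

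**Figure D2:**
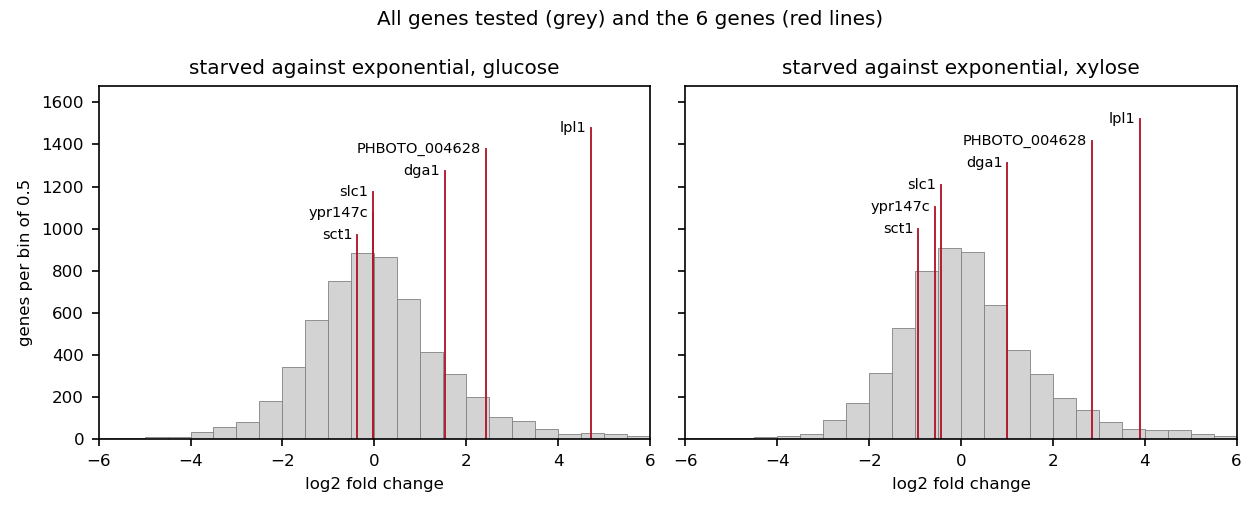
Number of genes (vertical axis) per bin of log2 fold change between starved and exponential growth (horizontal axis), for glucose and xylose, with a red line at each of the 6 genes, whose height carries no value. The axis ends at 6 in both directions and leaves out 83 genes on glucose and 75 on xylose. On glucose lpl1 (4.73) lies in the thin upper tail and slc1 (-0.03) and ypr147c (-0.04) at the centre.

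In exponential growth the sugars differed little for these genes. Only sct1 was called, higher on xylose by 0.44 ± 0.13 (1.36-fold, edgeR adjusted p = 0.0218), where 20.7% of all genes were called (9.94% higher and 10.8% lower). That sct1 call ended without exponential glucose A (edgeR adjusted p = 0.0515), B (0.0860) or C (0.0627) and without exponential xylose B (0.104). Of the others, lpl1 and ypr147c had intervals that reached close to the size of the sct1 difference. The 95% interval of the xylose to glucose difference was -0.21 to 0.25 for dga1, -0.06 to 0.38 for lpl1 and -0.40 to 0.09 for ypr147c. PHBOTO_004628 was lower on xylose in all libraries (-0.26, edgeR adjusted p = 0.108) and slc1 higher (0.18, edgeR adjusted p = 0.168), and neither passed the threshold. A fit of the exponential libraries alone called both (edgeR adjusted p = 0.00837 for PHBOTO_004628 and 0.0159 for slc1).

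In starvation 4 of the 6 were lower on xylose than on glucose and none was called higher, where 42.1% of all genes were called (19.2% lower and 23% higher). The log2 difference was -0.69 ± 0.12 for the lipase ypr147c (1.61-fold lower, edgeR adjusted p = 3.65e-04). It was -0.67 ± 0.09 for lpl1 (1.59-fold lower, edgeR adjusted p = 3.18e-05) and -0.51 ± 0.11 for dga1 (1.43-fold lower, edgeR adjusted p = 0.00127). For these 3 genes the libraries of the sugars did not overlap, which held for 44.4% of all genes. The smaller difference of slc1 (-0.24 ± 0.09, edgeR adjusted p = 0.0472) held in 2 of 12 fits that each left out 1 library, namely without starved glucose C and without starved xylose B. It was not called when the starved libraries were fitted alone (edgeR adjusted p = 0.133). No call was made for PHBOTO_004628 (0.16, 95% interval -0.08 to 0.39) or sct1 (-0.12, 95% interval -0.40 to 0.15), although sct1 was called without starved glucose B (-0.29, edgeR adjusted p = 0.0459).

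The starvation change differed between the sugars for all 6 by the test of the difference itself, where 38.2% of all genes were called (21.7% higher on xylose and 16.5% lower). A negative value means a smaller rise or a deeper fall on xylose. The difference was -0.83 ± 0.14 for lpl1 (edgeR adjusted p = 2.67e-04) and -0.53 ± 0.15 for dga1 (edgeR adjusted p = 0.0111). Both calls held without any 1 library and under every other setting tried. It was -0.56 ± 0.18 for sct1, -0.53 ± 0.17 for ypr147c and -0.42 ± 0.13 for slc1 (edgeR adjusted p = 0.0235, 0.0205 and 0.0171).

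Those last 3 differences lay nearer the threshold. The sct1 call ended without exponential glucose B (edgeR adjusted p = 0.0565), exponential xylose B (0.0665) or starved glucose A (0.0547). For ypr147c the call ended without exponential glucose B (edgeR adjusted p = 0.0506) or exponential xylose B (0.0503), and for slc1 without exponential glucose B (0.0505) or exponential xylose C (0.0525). PHBOTO_004628 was the only one of the 6 with a larger rise on xylose (0.42 ± 0.16, edgeR adjusted p = 0.0444). That call held in 3 of 12 fits, those without exponential xylose B, starved glucose B or starved xylose C, and ended with DESeq2 size factors (edgeR adjusted p = 0.0584).

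**Figure D3:**
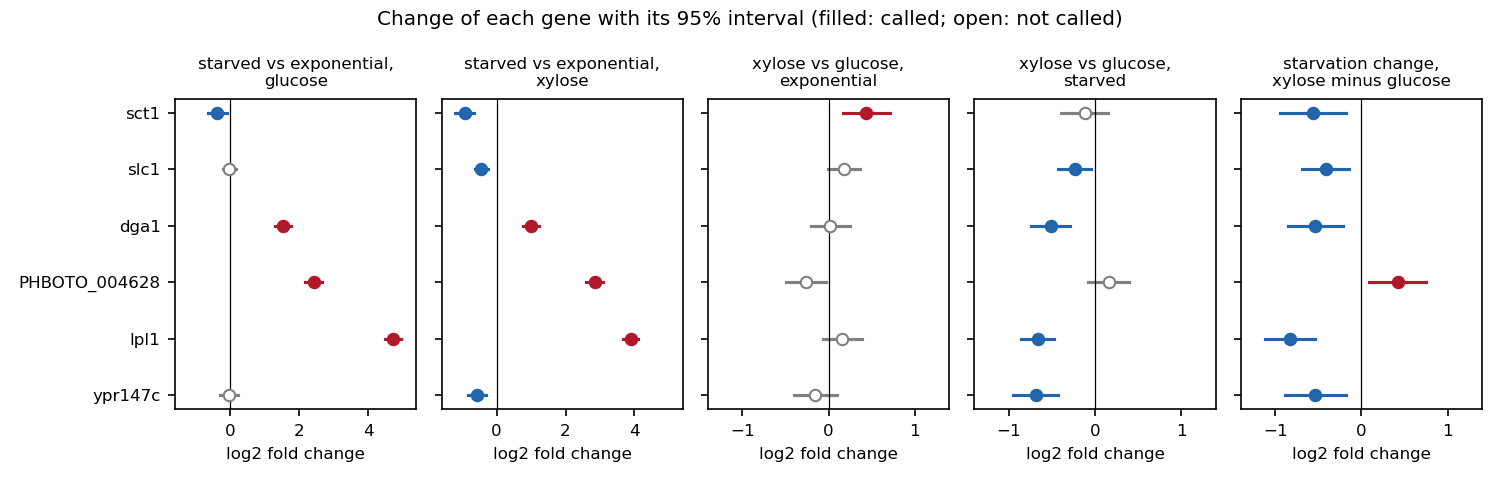
Log2 fold change (horizontal axis) of each gene in the 4 comparisons of groups and, at the right, the starvation change on xylose minus that on glucose, with 95% intervals as lines. Filled points passed an adjusted p of 0.05, red for higher and blue for lower, and the horizontal scale of the first 2 panels is wider than that of the others. In the starvation panels lpl1 lies farthest to the right (4.73 and 3.90), and in the last panel PHBOTO_004628 alone lies to the right of 0 (0.42).

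The order of the 4 groups also differed between the genes. Both lpl1 and dga1 ran from starved glucose down through starved xylose to the exponential groups, and in both genes the exponential groups overlapped each other. PHBOTO_004628 was highest in starved xylose, which overlapped starved glucose, followed by exponential glucose and, without overlap, exponential xylose. The order of sct1 was exponential xylose, exponential glucose, starved glucose and starved xylose, with overlap between the starved groups. For slc1 it was the same order, with overlap between exponential glucose and starved glucose. In ypr147c starved glucose overlapped both exponential groups, and starved xylose lay alone below them.

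By the deposited table of the authors, who compared groups with DESeq2, the 6 genes moved in the same way. Across 24 values (6 genes in 4 comparisons), the authors' deposited log2 fold changes differed from those given here by at most 0.0304. The authors' deposited table has 15 of the 24 at an adjusted p under 0.05, and the same 15 were called here.

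To compare patterns over the 12 libraries, each gene was centred on its own mean log2 CPM, and likeness was the root mean square difference to another gene, in log2 units. The closest pairs were slc1 with ypr147c (0.25) and slc1 with sct1 (0.29), all genes that fell in starvation on xylose. By this measure genes that vary little lie close to each other, and slc1 had an SD of only 0.19 over the 12 libraries. Of the rising genes, dga1 lay 0.75 from PHBOTO_004628, which was hardly nearer than its distances to slc1 (0.76), ypr147c (0.82) and sct1 (0.99). The largest riser, lpl1, lay 0.91 from PHBOTO_004628, 1.53 from dga1 and between 2.28 and 2.50 from the other members.

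Among 4601 annotated genes the nearest patterns to the members belonged to various processes. To lpl1 they were the carotenoid cleavage dioxygenase PHBOTO_001326 (0.25), the amine oxidase PHBOTO_004536 (0.26) and the amidase nit2 (0.28), against a median of 2.25 over all those genes. To PHBOTO_004628 they were the Mediator subunit PHBOTO_006390 (0.15), the sirtuin-type deacetylase PHBOTO_005505 (0.16) and fox2 (0.16), the multifunctional enzyme of peroxisomal fatty acid oxidation, against a median of 1.42. The genes nearest to dga1 were nnr1, which repairs damaged NAD(P)H, and the mitochondrial protein genes cmc2 and yme2 (0.09, 0.10 and 0.10, median 0.85).

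The nearest patterns to slc1, sct1 and ypr147c also belonged to various processes. Nearest to slc1 were the vacuolar proton pump subunit vph1 (0.08), the vesicle tethering gene vps52 (0.09) and the mismatch repair gene pms1 (0.09), against a median of 0.52. Nearest to sct1 were the SUZ domain gene PHBOTO_003277 (0.11), the septin cdc11 (0.14) and the kinase activator PHBOTO_000350 (0.14), against a median of 0.58. For ypr147c they were the glutaredoxin grx4 (0.14), the Ran-binding gene yrb2 (0.15) and the repair gene rad23 (0.16), against a median of 0.59.

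Around these 6 genes, a wider list of the pathway held 33 genes, found by gene name or product, from glycerol phosphate and acyl-CoA supply to lipolysis. It includes the 6. The 2 further loci annotated as diacylglycerol O-acyltransferase, PHBOTO_001523 and PHBOTO_003037, and the diacylglycerol kinase dgk1 had 0 counts in all 12 libraries. A count of 0 allows up to 3 counts, or 0.0882 to 0.192 CPM depending on the library, for counting error only. Of the 24 tested genes outside the 6, 14 (58.3%) rose and 3 (12.5%) fell on glucose, beside 40.1% and 41.1% of all genes, with a median of 0.54 beside -0.02. On xylose 13 (54.2%) rose and 4 (16.7%) fell, beside 40.6% each way of all genes, with a median of 0.29 beside 0.0012.

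Of 5 genes of acyl-CoA supply, 4 rose and 0 fell on each sugar. Beside this, 40.1% of all genes rose and 41.1% fell on glucose, and 40.6% went each way on xylose. The acylation steps up to phosphatidate showed rises and falls side by side. The fatty acid transport and acyl-CoA synthetase gene fat1 rose by 3.25 ± 0.09 on glucose (39.0 ± 1.95 to 371 ± 20.6 CPM) and by 2.88 ± 0.09 on xylose (30.2 ± 1.07 to 223 ± 18.9 CPM), the largest rises of the list after lpl1. The acyl-CoA synthetase faa2 rose by 0.99 ± 0.07 and 0.94 ± 0.07. Of the other glycerol phosphate acyltransferase, gpt2, the level rose from 104 ± 7.01 to 256 ± 18.7 CPM on glucose (1.30 ± 0.08) and from 116 ± 5.81 to 208 ± 3.35 CPM on xylose (0.84 ± 0.08), whereas its partner sct1 fell on both sugars. The lysophospholipid acyltransferase ale1, which can make the same step as slc1 in Saccharomyces cerevisiae, fell by 0.93 ± 0.09 on glucose and by 0.66 ± 0.09 on xylose.

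At phosphatidate the pathway forks between phospholipids and diacylglycerol, and cds1 on the one branch and pah1 on the other moved in opposite directions. The gene cds1, which draws phosphatidate toward phospholipids, fell by 1.67 ± 0.09 on glucose (201 ± 14.0 to 63.2 ± 4.24 CPM) and had a log2 change of -1.93 ± 0.09 on xylose (255 ± 1.96 to 66.7 ± 6.97 CPM). The phosphatidate phosphatase gene pah1, which makes diacylglycerol, rose by 1.26 ± 0.10 on glucose (63.7 ± 2.47 to 153 ± 25.8 CPM) and by 0.99 ± 0.10 on xylose (62.2 ± 1.60 to 124 ± 5.07 CPM). The lipid phosphatase gene dpp1, annotated as a diacylglycerol pyrophosphate phosphatase, rose by 0.89 ± 0.11 and 1.38 ± 0.11. The phosphatase gene app1 was not called on glucose (0.13 ± 0.15, edgeR adjusted p = 0.426) and rose by 0.36 ± 0.15 on xylose (edgeR adjusted p = 0.0356). The gene nem1, whose product activates Pah1 in Saccharomyces cerevisiae, was called on neither sugar (0.12 ± 0.09 and -0.05 ± 0.09). These last genes were chosen for mention after their values were seen.

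Separate routes lead from diacylglycerol to triacylglycerol in Saccharomyces cerevisiae, the acyl-CoA route of Dga1 and the phospholipid route of Lro1, and both genes rose here. The other tested gene listed under final acylation, the sterol O-acyltransferase gene are2, was called on neither sugar (-0.03 ± 0.09 and 0.04 ± 0.09). Mention of are2 was decided after its values were seen. The gene lro1 (PHBOTO_000520) rose by 0.97 ± 0.12 on glucose (42.1 ± 4.64 to 82.7 ± 5.85 CPM) and by 2.02 ± 0.12 on xylose (26.6 ± 2.08 to 108 ± 17.1 CPM). Its rise was larger on xylose by 1.05 ± 0.17 (edgeR adjusted p = 1.98e-04), the opposite sign to the difference for dga1, and this lro1 call held without any 1 library. In exponential growth lro1 was lower on xylose (-0.66 ± 0.12, edgeR adjusted p = 7.35e-04), while dga1 was not called (0.02 ± 0.11).

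Lipolysis genes moved in both directions, more of them up. Of all genes 40.1% rose and 41.1% fell on glucose, and 40.6% went each way on xylose. Of 7 genes with the lipolysis role, 4 rose and 1 fell on each sugar, lpl1 among those that rose. The one that fell was tgl2 on glucose and ypr147c on xylose, and yeh2 was called on neither (0.13 ± 0.09 and -0.14 ± 0.08). The annotated sterol esterase yeh2_2 rose by 1.83 ± 0.09 on glucose and 1.52 ± 0.09 on xylose, the monoacylglycerol lipase gene mgl2 by 1.54 ± 0.16 and 1.92 ± 0.16, and the triacylglycerol lipase gene tgl5 by 1.07 ± 0.08 and 0.78 ± 0.08. The lipase gene tgl2 fell by 0.58 ± 0.10 on glucose and stood at 0.09 ± 0.10 on xylose, which was not called, and turned to -0.13 with scaling by library totals. Copies such as yeh2 and yeh2_2 may share reads, so their separate levels are uncertain.

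Between the sugars, fewer genes of the wider list were called than between starved and exponential growth. Of the 30, which include the 6 genes, 6 (20%) were higher on xylose in exponential growth and 5 (16.7%) lower. Of all genes 9.94% were higher and 10.8% lower. In starvation 2 of the 30 (6.67%) were higher on xylose and 14 (46.7%) lower, beside 23% and 19.2% of all genes (median -0.14, beside -0.0022). All 3 genes listed under glycerol phosphate supply were among the lower ones, gpd1 at -0.34 ± 0.08, gut2 at -0.35 ± 0.08 and gut1 at -0.22 ± 0.08. Of these, gut2 is annotated as the mitochondrial glycerol-3-phosphate dehydrogenase, which uses glycerol phosphate rather than makes it. The gut1 call held in 6 of 12 fits that each left out 1 library, and those of gpd1 and gut2 in all 12. The transporter gene fat1 was lower by a log2 change of -0.74 ± 0.08. The gene ice2, whose product in Saccharomyces cerevisiae links droplets to the endoplasmic reticulum, stood at -0.45 ± 0.10. The 2 higher ones were tgl2 at 0.42 ± 0.10 and lro1 at 0.38 ± 0.12. Leaving out 1 library at a time, the tgl2 call held in all 12 fits and the lro1 call in 10.

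**Figure D4:**
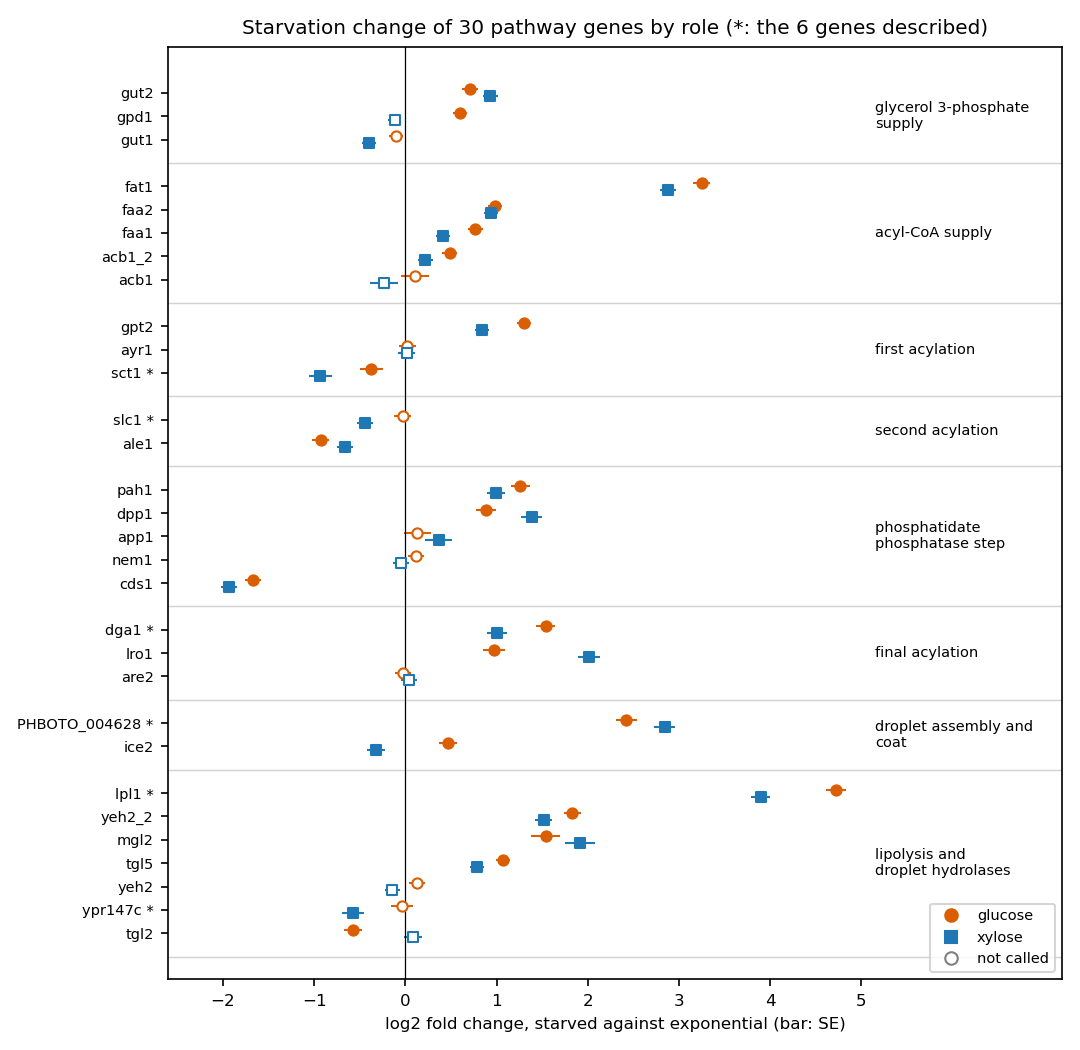
Log2 fold change between starved and exponential growth (horizontal axis) of the 30 tested genes of the wider list, by role, on glucose (circles) and xylose (squares), with the SE as a bar and open points where not called. The 6 genes described are starred. In the phosphatidate group cds1 lies at -1.67 and -1.93 and pah1 at 1.26 and 0.99, and in final acylation dga1 and lro1 exchange the order of the sugars.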

How the data were processed

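The analysis used the deposited raw counts per locus and library, named as such per the file headers. The deposited signal columns are the authors' normalized counts, equal to counts divided by 1 size factor per library. The log2, p-value and score columns are the authors' deposited comparisons, made with DESeq2, per the submitters' processing notes. The same notes name HISAT2 2.2.1, Trim Galore 0.6.1 and cutadapt 2.3. Libraries were stranded and poly-A selected, per the labels. Of the read counter, strand setting and build, none is named (not given in the sources used here). Genes with near-identical copies may share reads. All per-sample columns were mapped (0 left out).

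An edgeR 4.0.16 model (R 4.3.3) took all 12 libraries, with a coefficient for each group, TMM scaling and filterByExpr (minimum count 10, at least 0.395 CPM in 3 libraries), which kept 5805 of 6689 loci. Quasi-likelihood F tests had 8 residual degrees of freedom from the design. Adjustment was by Benjamini-Hochberg over all genes tested, and only the chosen genes are printed. An approximate SE was obtained as the size of the log2 change over the root of F, and 95% intervals use it. The fit was tested on simulated data. p-values measure the spread between the replicates the labels call biological.

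The 6 genes, the pathway list (search by gene name and product) and the alternatives were chosen with earlier results of these data known. Named pathway genes are up to 2 per role and comparison, those with the largest called changes, and the 3 nearest patterns are per gene. Replicate letters were treated as names only. Alternatives were other scalings (DESeq2 size factors, library totals), no filter or a mean of 20 CPM, DESeq2 1.42.0, fits of the compared groups only, the replicate letter as a block, and leaving out each library.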

Additional observations from a re-analysis of the deposited data

Results flagged for a closer look

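The change with starvation differed between xylose and glucose, by the test of the difference itself (edgeR, log2, xylose minus glucose), for all 6 genes, beside 38.2% of all genes tested. The values were -0.83 for lpl1, -0.56 for sct1, -0.53 for dga1, -0.53 for ypr147c, -0.42 for slc1 and 0.42 for PHBOTO_004628. Of these calls only those of lpl1 and dga1 held in all 12 fits that each left out 1 library. The PHBOTO_004628 call held in 3 of the 12. Among the 24 other tested genes of the wider pathway list 3 (12.5%) were called higher and 7 (29.2%) lower, beside 21.7% and 16.5% of all genes. Those named by the rule follow. The difference was 1.05 for lro1, which makes triacylglycerol from phospholipid, 0.66 for the lipase gene tgl2 and 0.49 for the phosphatase gene dpp1. It was -0.79 for the endoplasmic reticulum protein gene ice2, which rose on glucose (0.47) and fell on xylose (-0.32). It was -0.71 for gpd1, which makes glycerol phosphate, -0.46 for the acyltransferase gene gpt2 and -0.36 for fat1. For the glycerol kinase gene gut1 (-0.30) and the lipase gene tgl5 (-0.29) the call ended in most fits that left out 1 library.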

How the results depend on the processing

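The starvation rises of dga1, PHBOTO_004628 and lpl1 kept their call and direction on both sugars under every alternative run. Of 21 called results of the 6 genes, 14 were called in every fit that left out 1 library. Such fits called 3 to 4 of the 6 for starvation on glucose, 6 in all for starvation on xylose, 0 to 1 between sugars in exponential growth, 3 to 4 between sugars in starvation and 2 to 6 for the difference in starvation change (2 without exponential glucose B). In the pathway list they called 20 to 21, 21 to 23, 7 to 12, 12 to 15 and 9 to 17 genes in the same order, beside 21, 23, 11, 16 and 16. A fit of the exponential groups alone called 3 of the 6 and 18 of the list between sugars, beside 1 and 11, and over all genes it called 1282 higher and 1176 lower of 5733, beside 577 and 626 of 5805.

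Among the 6 genes and the named pathway genes, signs turned only for changes near 0 that were not called. Without 1 library, the change on glucose ran from -0.077 to 0.0085 for slc1 and from -0.15 to 0.055 for ypr147c, and that of dga1 between sugars in exponential growth from -0.043 to 0.070. Between sugars in starvation, leaving out 1 library gave -0.069 to 0.27 for mgl2, -0.012 to 0.14 for cds1 and -0.063 to 0.082 for yeh2_2. There yeh2_2 was also -0.016 with DESeq2 size factors, -0.016 with DESeq2 and -0.12 with library totals, which gave cds1 -0.045 and yeh2 -0.043. Library totals gave tgl2 -0.13 for starvation on xylose. Why these turned was not tested.

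Scaling by library totals, added after the data were seen, moved the median change of all genes to -0.12 (glucose), -0.21 (xylose) and -0.12 (sugars in starvation). Of calls between sugars in starvation 36.0% were then higher on xylose, beside 54.5%, and of calls for the difference in starvation change 42.6%, beside 56.9%. For PHBOTO_004628 that difference was then 0.31 and not called (edgeR adjusted p = 0.139).

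Replicates with the same letter did not deviate together (correlations of -0.12 to 0.17), and with the letter as a replicate block 4, 6, 1, 3 and 6 of the 6 genes were called, slc1 between sugars in starvation being the one that was not (edgeR adjusted p = 0.0666). Depth limits these genes little, since the lowest count of any of the 6 in a library was 165.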
